A study of Homo sapiens with 29 samples.

Results

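The MYC and MAX network is the set of transcription factors that pair with MAX or with its relative MLX on DNA. The 10 genes described here are MYC, MAX, MXD1, MXD3, MXD4, MXI1, MNT, MGA, MLX and MLXIP, out of 35579 genes in the table. They were chosen by name, and the level of each is the sum of its transcripts in TPM, a transcript's read density scaled to the same total in every library.

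RNA was sequenced from PC9, a human lung adenocarcinoma cell line with an activating mutation of EGFR, and from 9 lines made from it. Parental PC9 (PAR) has its own AXL, a receptor tyrosine kinase. The AXL knockout (KO) was made with CRISPR/Cas9, and the other 8 lines are KO cells transduced with AXL, as wild type (WT), as a kinase-dead form (KD) or with 1 tyrosine replaced by phenylalanine (Y634F, Y643F, Y698F, Y726F, Y750F and Y821F). Each line was left untreated, or was treated for 24 h with 1 μM erlotinib (E), an inhibitor of the EGFR kinase, or with erlotinib and 300 ng/mL AF154 (EA), an antibody that activates AXL, which gave 10 untreated, 10 E and 9 EA libraries as no EA library of KO was analysed here. The transduced lines are sorted populations and not clones, and they share the KO background and vector. The paper reports that only a minority of the cells in the transduced lines expressed AXL. Every line has 1 library per treatment, so the lines serve as replicates, and a p-value sets the mean change against its spread between lines. The derived lines share the KO origin and are not fully independent replicates.

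The table gave no read counts and TPM keeps no depth, so the counting error of a value is unknown. AXL was at 92.4 TPM in untreated KO and 79.3 TPM in KO with E, the lowest levels of their groups. Among markers of epithelial cells, EPCAM was at 286 to 439 TPM and KRT8 at 1249 to 1952 TPM. With E, EPCAM, KRT8 and KRT18 fell and KRT19 and CDH1 rose. CD3E was listed at 0 in all 29 libraries, PTPRC and COL3A1 reached at most 1.003 and 0.062 TPM, PECAM1 reached 9.6 TPM, and COL1A1 was at 15.3 to 70.9 TPM and rose with E (log2 change 1.03), of which the part in the results below was not tested. Mitochondrially encoded genes took 11.4% to 17.4% of the TPM. PAR stood apart from the other lines in several of the genes below, and its values are given where it did.

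MYC binds DNA with MAX at the E-box, a site with the letters CACGTG, and activates genes of ribosome production, metabolism and cell division. MXD1, MXD3, MXD4, MXI1 and MNT compete with MYC for MAX and bring the SIN3 and histone deacetylase corepressors to the same sites, and MGA takes MAX into a polycomb repressor complex. MLX pairs with MXD1, MXD4 and MNT and with MLXIP (MondoA), which responds to glucose phosphates and activates TXNIP and ARRDC4. MYC RNA is short-lived, and its level is known to depend on growth factor signalling such as that of EGFR.

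Since members of the network bind the E-box, and some of their own genes carry it, the stretches upstream of 4 of them are shown with any E-box in capitals. They are RefSeq promoter sequences (GRCh38.p14), written 5′ to 3′ on the strand of the gene and ending at the base before the start of the named GENCODE transcript, since RefSeq starts lie inside some of these transcripts. MXD4 and MXI1 are the genes whose RNA rose most below, MXI1 in 2 transcripts with separate starts, and MNT and MLX are partners with an E-box.
MXD4 (MXD4-201, chr4:2262295-2262359, minus strand): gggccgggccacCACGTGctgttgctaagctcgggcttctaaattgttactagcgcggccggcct
MXI1 (MXI1-201, chr10:110225746-110225992, plus strand): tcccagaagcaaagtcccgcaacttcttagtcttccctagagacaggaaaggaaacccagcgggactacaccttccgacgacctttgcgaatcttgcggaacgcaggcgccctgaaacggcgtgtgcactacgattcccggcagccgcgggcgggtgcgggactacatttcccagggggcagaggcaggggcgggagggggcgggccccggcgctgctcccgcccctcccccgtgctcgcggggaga
MXI1 (MXI1-202, chr10:110207355-110207604, plus strand): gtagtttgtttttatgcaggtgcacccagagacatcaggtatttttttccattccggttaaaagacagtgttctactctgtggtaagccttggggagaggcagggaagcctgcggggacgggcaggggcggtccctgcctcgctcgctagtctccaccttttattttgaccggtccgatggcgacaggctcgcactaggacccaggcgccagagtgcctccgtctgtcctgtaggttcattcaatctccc
MNT (MNT-201, chr17:2401119-2401310, minus strand): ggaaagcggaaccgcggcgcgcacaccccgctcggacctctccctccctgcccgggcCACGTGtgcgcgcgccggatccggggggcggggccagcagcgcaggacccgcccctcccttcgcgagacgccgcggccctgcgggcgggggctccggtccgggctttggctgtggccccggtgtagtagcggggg
MLX (MLX-203, chr17:42566850-42567067, plus strand): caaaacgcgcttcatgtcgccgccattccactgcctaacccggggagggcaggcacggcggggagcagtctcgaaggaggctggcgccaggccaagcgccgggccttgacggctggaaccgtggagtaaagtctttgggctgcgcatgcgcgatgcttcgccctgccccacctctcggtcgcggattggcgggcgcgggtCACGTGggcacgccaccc
The first base of the E-box lay 53 bases before the start of MXD4-201, 135 bases before that of MNT-201 and 18 bases before that of MLX-203. RefSeq gives 14 promoter windows for 9 of the 10 genes, and CACGTG, which reads the same on both strands, was in the 250 bases before the RefSeq start in 3 of the 14 windows, those of MXD4, MNT and MLX. Of all 35116 windows of that length, 6.34% held it. Neither stretch of MXI1 holds these letters, so of the 2 genes that rose most with E only MXD4 has them within these windows. A match of letters is a description and no evidence of binding.

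MYC fell with erlotinib in every line. Its level was 75.3 TPM (Y698F) to 105 TPM (Y634F) in the untreated libraries, with a median of 94.4, and 27.6 TPM (PAR) to 51.9 TPM (Y634F) with E, with a median of 43.5. The highest E library was below the lowest untreated one, as it was for 21.6% of the 9085 genes tested. The mean went from 92.7 ± 8.89 to 42.1 ± 7.48 TPM (SD, n = 10 lines each), and the change in log2(TPM + 1) was -1.14 ± 0.06 (SE), or a ratio of 0.455, with an adjusted p of 4.0e-10 in limma with Benjamini-Hochberg adjustment over 9085 genes. In bulk RNA, a lower level in each cell and fewer cells with a high level cannot be told apart. The change ran from -1.55 in PAR to -0.85 in KO, where MYC went from 91.6 to 50.4 TPM with 1 library per treatment. Whether AXL had a part in the change was not tested. Of the 9085 genes, 467 had a lower change than MYC.

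Of the 9 network genes that reached a mean of 10 TPM, 3 rose with E (MXD4, MXI1 and MLXIP), 5 fell (MYC, MAX, MXD3, MGA and MLX) and MNT did not pass the test. MXI1 reached that mean only through its E and EA libraries, as no untreated library was above 9.58 TPM. Erlotinib moved most of what these cells express: 79% of the 9085 genes passed the test, 36.4% as higher and 42.6% as lower. A count of 8 of 9 lies near that share and is no result about the network. The untreated and E levels did not overlap for 3 of the 9 (MYC, MXD4 and MXI1), which is also near the share over all genes, 36.5% (14.9% higher and 21.6% lower).

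**Figure D1:**
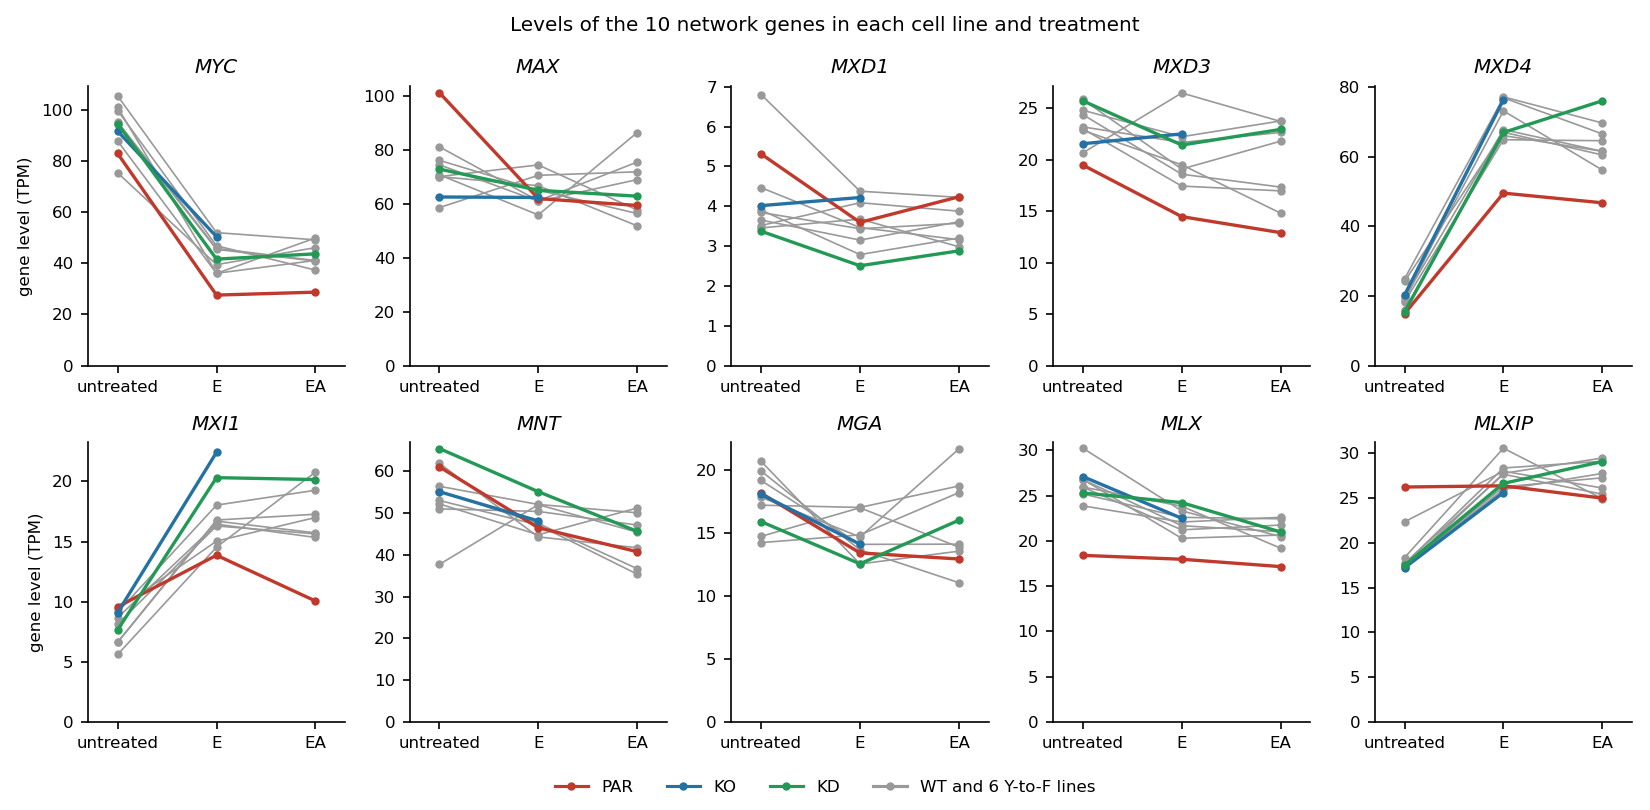
Levels of the 10 genes in TPM (y axes start at 0) for the untreated, E and EA libraries, with 1 point per library and the libraries of a line joined; KO has no EA point. MYC, MXD4 and MXI1 show no overlap between untreated and E, MAX, MGA, MXD3 and MNT overlap widely, and PAR is the lowest line for MYC and MXD4 with E at 27.6 and 49.6 TPM.

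MXD4, which encodes an antagonist of MYC that pairs with MAX and MLX, had the largest change of the 10 genes. It was at 14.9 TPM (PAR) to 25.0 TPM (Y634F) untreated, with a median of 19.1, and at 49.6 TPM (PAR) to 77.2 TPM (WT) with E, with a median of 67.4. The treatments did not overlap, and every one of the 10 lines rose. The mean rose from 19.2 ± 3.39 to 68.6 ± 8.26 TPM, a log2 change of 1.79 ± 0.06 (ratio 3.46, limma adjusted p = 1.3e-12). The smallest rise in a line was 1.43 (Y643F) and the largest 2.05 (KD), and 116 of the 9085 genes had a higher change. All 4 MXD4 transcripts that reached a mean of 1 TPM rose in 10 of 10 lines, and the coding MXD4-201, the transcript whose upstream E-box is shown above, went from 14.8 ± 2.20 to 55.3 ± 6.99 TPM.

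MXI1 encodes a further MAX partner that represses through SIN3. Its level was low, 5.61 TPM (Y643F) to 9.58 TPM (PAR) untreated with a median of 8.40, and 13.9 TPM (PAR) to 22.4 TPM (KO) with E with a median of 16.6. Again no E library reached down to the untreated range. The mean rose from 8.05 ± 1.37 to 17.0 ± 2.63 TPM (log2 change 0.999 ± 0.09, adjusted p = 5.6e-08 in limma), in 10 of 10 lines, with the smallest rise of 0.49 in PAR and the largest of 1.30 in KD. With a filter of 1 TPM, which every untreated library also meets, the limma adjusted p was 1.4e-07.

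MXI1 has 3 transcripts that reached a mean of 1 TPM, and the main 2, which have separate starts, rose. MXI1-201, which starts at chr10:110225993, went from 3.55 to 7.0 TPM untreated to 10.2 to 17.0 TPM with E, and MXI1-202, which starts upstream at chr10:110207605, went from 0.787 to 1.61 TPM to 2.67 to 4.08 TPM. Fitted over 47921 transcripts that reached a mean of 1 TPM, the log2 changes were 1.08 ± 0.09 for MXI1-201 (limma adjusted p = 1.0e-06) and 0.86 ± 0.10 for MXI1-202 (limma adjusted p = 2.7e-05). Neither overlapped between untreated and E, as for 13.5% of all these transcripts (6.08% higher and 7.42% lower). MXI1-205, which starts at chr10:110226084, had a change of 0.40 that did not pass (limma adjusted p = 0.096), higher in 9 of 10 lines. MXI1-201 made up 64.7% ± 9.78 of MXI1 RNA untreated and 70.6% ± 3.94 with E, a difference that was higher in 7 of 10 lines (p = 0.13, two-sided exact sign-flip permutation test, n = 10 lines). Which of the transcripts a read belongs to is an estimate of the authors' software where transcripts share sequence.

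MNT, an antagonist that pairs with MAX and MLX and is expressed in most tissues, gave a different answer for its gene sum and for its coding transcript. The sum was 37.7 TPM (WT) to 65.4 TPM (KD) untreated with a median of 55.2, and 44.3 TPM (Y750F) to 55.1 TPM (KD) with E with a median of 47.8. It was lower with E in 9 lines and higher in WT, and the log2 change of -0.16 ± 0.07 did not pass the test (limma adjusted p = 0.051). Without WT it was -0.22 and passed (limma adjusted p = 0.00056), as it did without Y726F (-0.17, limma adjusted p = 0.0496).
The only MNT protein-coding transcript above a mean of 1 TPM, MNT-201, was at 13.2 TPM (Y750F) to 15.3 TPM (Y726F) untreated with a median of 14.1, and at 15.8 TPM (Y750F) to 17.9 TPM (Y634F) with E with a median of 17.6. It rose in 10 of 10 lines, and the treatments did not overlap. The mean went from 14.2 ± 0.699 to 17.2 ± 0.695 TPM (log2 change 0.26 ± 0.04, limma adjusted p = 0.00019 over the 47921 transcripts).
The MNT transcripts annotated as retained-intron or processed, summed, went the other way, from 40.3 ± 7.52 to 30.5 ± 3.69 TPM, lower in 9 of 10 lines. Of these, the retained-intron transcript MNT-209 fell in every line, from 7.82 ± 0.671 to 4.68 ± 0.547 TPM (log2 change -0.64 ± 0.08, limma adjusted p = 4.7e-05). In WT these transcripts were at 24.1 TPM untreated, the lowest value, against 34.6 TPM or more in the other lines, while MNT-201 in WT was at 13.6 TPM and within the range of the other lines. MNT-201 made up 26.4% ± 4.2 of MNT RNA untreated and 35.5% ± 2.66 with E, higher in 9 of 10 lines (p = 0.0059, two-sided exact sign-flip permutation test, n = 10 lines), and with adjustment over the 9 genes tested in this way it did not pass 0.05. Whether unspliced RNA in the libraries changed with treatment was not tested.

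**Figure D2:**
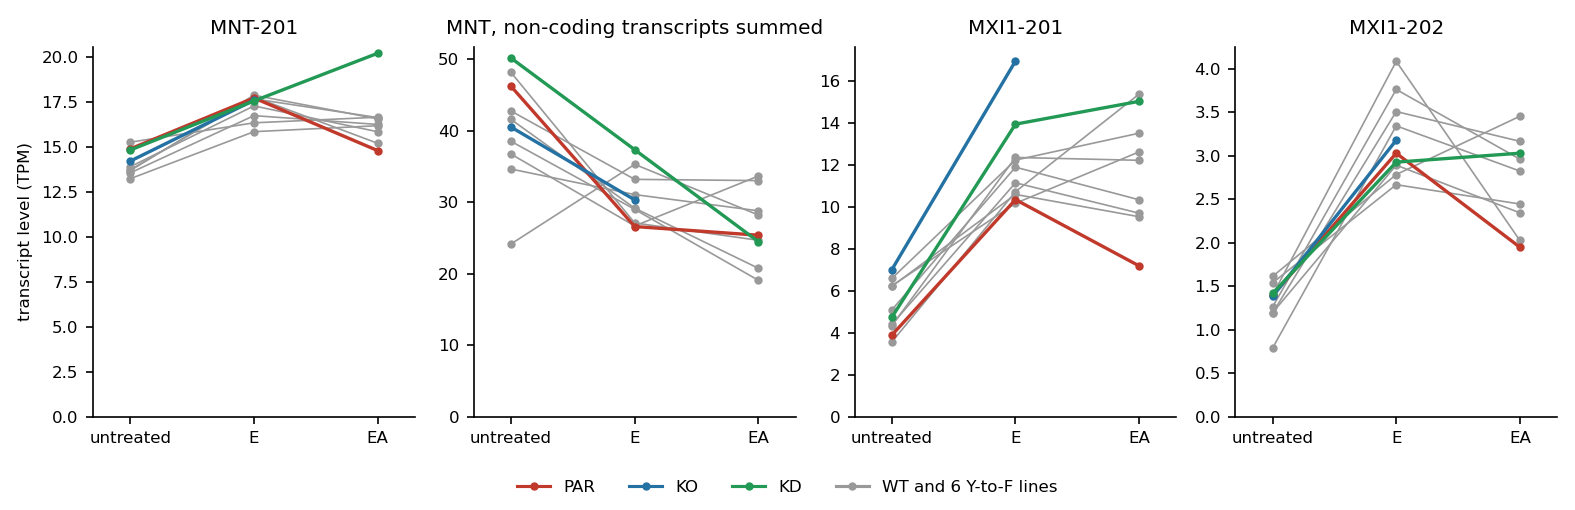
Levels in TPM (y axes start at 0) of MNT-201, of the MNT transcripts without a coding frame summed, of MXI1-201 and of MXI1-202 in the untreated, E and EA libraries, with the libraries of a line joined. MNT-201 rose with E in all 10 lines while the other MNT transcripts fell in 9, and MXI1-201 and MXI1-202 rose in all 10.

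Of the 40 transcripts of the network genes that reached a mean of 1 TPM, 9 were higher and 10 lower with E, against 44.7% of all 47921 transcripts that passed (22.5% higher and 22.2% lower). For MYC, the transcripts MYC-202, MYC-206 and MYC-205 fell, with log2 changes of -1.25, -0.82 and -1.33, and MYC-208 did not pass (-0.64, limma adjusted p = 0.17). MAX-202, a minor transcript at 1.84 ± 0.418 TPM untreated and 2.86 ± 0.663 TPM with E, rose (0.44, limma adjusted p = 0.015) while the main MAX-204 fell (-0.20, limma adjusted p = 0.025). MGA-201, the largest transcript of MGA, had a change of 0.07 (limma adjusted p = 0.82). MGA-205 (-0.40) and MGA-202 (-0.71) fell, and MGA-211 (-0.33, limma adjusted p = 0.57) did not pass.

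MXD1 and MXD3 are the other antagonists. MXD1 was at 2.51 to 6.80 TPM in all 29 libraries and below the 10 TPM filter. With a filter of 1 TPM its mean was 4.24 ± 1.07 TPM untreated and 3.53 ± 0.604 TPM with E (log2 change -0.20 ± 0.09, limma adjusted p = 0.057), lower in 7 of 10 lines. MXD3, known to be highest in dividing cells, was at 19.5 to 25.9 TPM untreated and 14.5 to 26.5 TPM with E, so the treatments overlapped. Its log2 change of -0.19 ± 0.07 passed (limma adjusted p = 0.026), with 2 of 10 lines higher, and it did not pass without PAR, Y634F, Y643F or Y750F, with no filter, or after centring or quantile normalization of the libraries.

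The shared partners changed little. MAX was at 58.6 TPM (WT) to 101 TPM (PAR) untreated with a median of 71.8, and at 55.9 TPM (Y698F) to 74.4 TPM (Y726F) with E with a median of 63.7. PAR was the sample farthest from the rest, since the other untreated lines were at 58.6 to 81.1 TPM. The log2 change was -0.18 ± 0.07 (limma adjusted p = 0.034), lower in 8 of 10 lines, and was -0.13 without PAR (limma adjusted p = 0.077). It also did not pass without KD, Y634F, Y698F, Y750F or Y821F, with no filter, or after centring or quantile normalization. MGA fell from 17.6 ± 2.12 to 14.4 ± 1.58 TPM (log2 change -0.27 ± 0.08, limma adjusted p = 0.0068), in 8 of 10 lines and with overlapping ranges.

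MLX and MLXIP moved in opposite directions. MLX was at 18.4 TPM (PAR) to 30.3 TPM (Y643F) untreated and 17.98 TPM (PAR) to 24.2 TPM (KD) with E, was lower with E in 10 of 10 lines, and had a log2 change of -0.20 ± 0.05 (limma adjusted p = 0.0013). MLXIP was at 17.2 TPM (KO) to 26.2 TPM (PAR) untreated with a median of 17.6, and at 25.6 TPM (KO) to 30.6 TPM (WT) with E with a median of 27.1. It was higher with E in 10 of 10 lines (log2 change 0.52 ± 0.06, limma adjusted p = 3.1e-06), although in PAR by 0.01 only. The overlap of its treatments came from PAR, at 26.2 TPM untreated, and the coding transcript MLXIP-201 did not share it, with 13.7 to 16.2 TPM untreated (15.8 in PAR) and 21.5 to 23.2 TPM with E (21.5 in PAR). TXNIP, a target of MLXIP with MLX that limits glucose uptake, was at 49.0 to 78.2 TPM untreated and 167 to 255 TPM with E, with no overlap (log2 change 1.75 ± 0.07, limma adjusted p = 8.5e-12). ARRDC4, the other target listed, was below the filter, at 3.45 to 4.91 TPM untreated and 4.38 to 7.39 TPM with E, and was higher in 10 of 10 lines. The rest of the family was nearly silent, with MYCN listed at 0 in every library except Y643F with E (0.055 TPM), MYCL at 0.706 to 1.77 TPM and MLXIPL at 0.574 to 2.63 TPM.

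**Figure D3:**
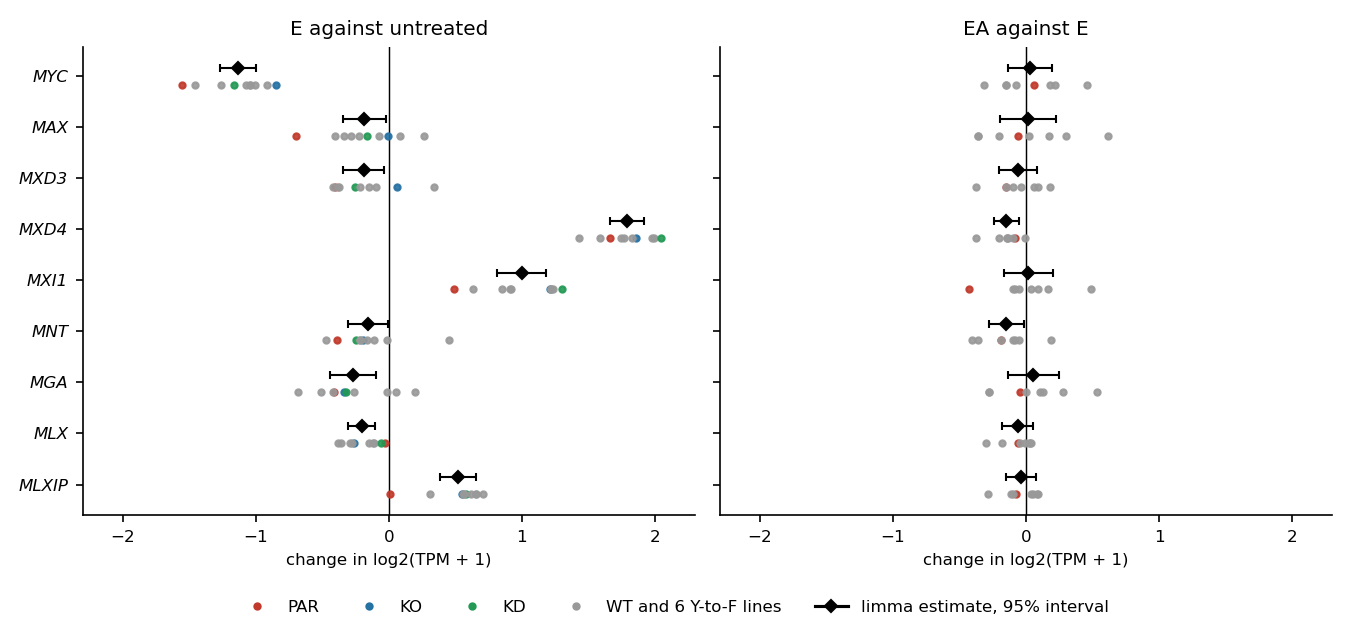
Change in log2(TPM + 1) of the 9 genes above the filter for E against untreated (10 lines) and EA against E (8 lines, without KD and KO). Circles are single lines and diamonds the limma estimate with its 95% interval; with E, MYC at -1.14 lies left of zero in every line and MXD4 at 1.79, MXI1 at 0.999 and MLXIP at 0.52 lie right of it, while with EA the estimates lie between -0.15 and 0.05.

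MYC fell while MXD4 and MXI1 rose and MXD3 fell slightly, and the proportions of their RNA changed. The ratio of MYC to MXD4 TPM was 3.62 (Y643F) to 6.11 (KD) untreated and 0.537 (Y643F) to 0.675 (Y634F) with E, so MYC RNA exceeded MXD4 RNA in every untreated library and was below it in every E library. The sum of the 5 antagonists rose from 89.2 to 118 TPM untreated (median 111) to 128 to 176 TPM with E (median 159), and MXD4 made up 13.1% to 21.5% of it untreated and 38.7% to 46.5% with E. MYC over this sum was 0.742 (Y698F) to 1.12 (WT) untreated and 0.215 (PAR) to 0.314 (Y634F) with E, with medians of 0.817 and 0.262. MNT transcripts without a coding frame are a large share of that sum untreated. With protein-coding transcripts alone, a choice made after seeing the data, the antagonists summed to 55.2 to 65.8 TPM untreated and 87.9 to 125 TPM with E, and MYC over their sum was 1.29 (Y698F) to 1.70 (Y634F) untreated (median 1.499) and 0.314 (PAR) to 0.456 (Y634F) with E (median 0.374). So untreated MYC RNA was above the coding RNA of the 5 antagonists in every line, but below their gene sum in every line except WT, and on both scales the ratio was lower with E without overlap. MYC and the antagonists together stood to MAX as 1.91 (PAR) to 3.23 (KO) untreated and as 2.51 (PAR) to 3.59 (KO) with E, ranges that overlapped. These are ratios of RNA, not of protein, and were not tested.

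**Figure D4:**
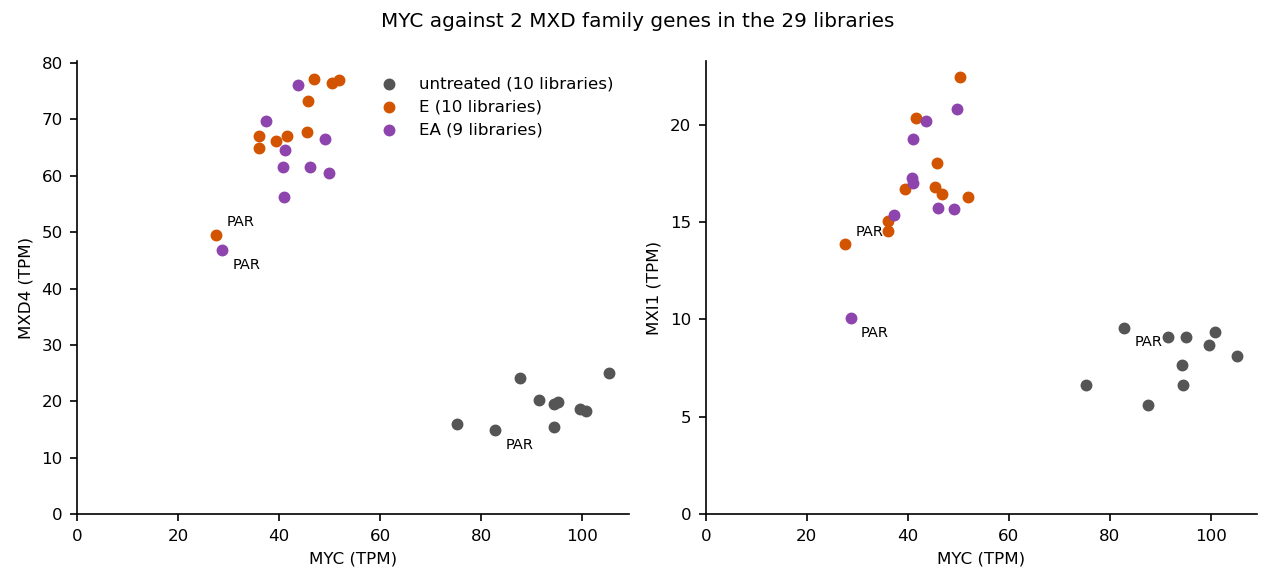
MYC (x axis, TPM) against MXD4 and MXI1 (y axes, TPM) in the 29 libraries, 1 point per library, coloured by treatment, with PAR named. The 10 untreated libraries lie at 75.3 TPM of MYC or more and 25.0 TPM of MXD4 or less, the E and EA libraries lie at 51.9 TPM of MYC or less, and PAR has the lowest MYC of the E and EA libraries.

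Adding AF154 to erlotinib called none of the 9 genes in the 8 lines that remain when KD and KO are left out, where 2.36% of the 9085 genes passed the test (1.88% higher and 0.473% lower). Of these 8 lines, all but PAR are transduced, with AXL in a minority of cells by the paper's account. A change in those cells alone would be diluted in bulk RNA, and this was not tested. Without adjustment, 2 of the 9 in limma, MXD4 and MNT, had a p under 0.05, near the 20.9% of all genes that did. The same E libraries enter both comparisons, so a library high or low with E moves them in opposite directions. MYC was at 27.6 to 51.9 TPM with E and 28.7 to 49.9 TPM with EA in these lines, higher with EA in 4 of 8 (log2 change 0.03 ± 0.08, 95% interval -0.14 to 0.19, limma adjusted p = 0.87). MXI1 (0.02), MAX (0.02), MGA (0.05), MXD3 (-0.06), MLX (-0.06) and MLXIP (-0.04) had changes within 0.10 of zero, with the widest 95% interval from -0.19 to 0.23 for MAX.

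MXD4 was the gene nearest to a call with AF154. It went from 67.9 ± 8.83 to 60.9 ± 7.03 TPM in the 8 lines and was lower with EA in each of them, by 0.006 (Y726F) to 0.38 (Y821F) on the log2 scale, with a log2 change of -0.15 ± 0.04 (95% interval -0.24 to -0.06, p = 0.0044 and limma adjusted p = 0.084). In KD, whose AXL has no kinase activity, its gene sum went the other way, from 67.0 to 76.1 TPM. This difference between KD and the 8 lines was not tested as KD is 1 line. The coding MXD4-201 hardly moved in KD, at 56.5 TPM with E and 57.3 TPM with EA. It was lower with EA in each of the 8 lines (log2 change -0.18, limma adjusted p = 0.22). Without each line in turn, the change of the MXD4 gene sum ran from -0.17 (without Y726F) to -0.12 (without Y821F). None of these passed (limma adjusted p of 0.069 to 0.18). In Y821F, mitochondrially encoded genes took 17.4% of the TPM with EA and 12.9% with E, and their part in its fall was not tested. MNT had a log2 change of -0.15 ± 0.06 (limma adjusted p = 0.19), lower in 7 of 8 lines. In the 9 EA libraries MXD4 was at 46.8 to 76.1 TPM, above the highest untreated 25.0 TPM, MXI1 was at 10.1 to 20.8 TPM, above the highest untreated 9.58 TPM, and MYC was at 28.7 to 49.9 TPM, below the lowest untreated 75.3 TPM. The EA levels of the other 7 genes overlapped their untreated ranges.

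The genes around the network were counted from lists drawn up by role, with earlier results of these data known. Of 40 genes long used as MYC targets, 38 reached a mean of 10 TPM and all 38 were lower with E, where 42.6% of the 9085 genes were lower. The median log2 change of the 38 was -1.04 against -0.04 over all genes tested. The falls were largest for NME1, a nucleoside diphosphate kinase (264 ± 20.3 to 69.6 ± 6.81 TPM, -1.91), for ODC1 and SRM, enzymes of polyamine synthesis (-1.70 and -1.65), and for NOP56, a nucleolar protein of ribosomal RNA modification (-1.65). They were smallest for PES1, BOP1 and RRP12, factors of ribosome assembly (-0.48, -0.52 and -0.60), and for EIF4A1, a translation initiation helicase (-0.60). The 8 genes of cycling cells fell as well, with a median of -1.60, from MCM5 and PCNA of the replication machinery (-2.18 and -2.14) to the mitotic cyclin CCNB1 (-1.05), so the MYC targets fell beside genes of division and the part of each in the other was not tested.

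Of 12 cofactors that bind MYC at chromatin, 6 fell and 2 rose, with a median of -0.24, and the number called is below the 79% over all genes (42.6% lower and 36.4% higher). RUVBL1, an ATPase of chromatin remodelling complexes (58.6 ± 3.13 to 29.8 ± 2.54 TPM, -0.96), WDR5, which anchors MYC on chromatin (-0.91), the acetyltransferase KAT2A (-0.86) and ACTL6A (-0.63) fell most, and ZBTB17 (MIZ1, 0.21), through which MYC represses, and PAF1 (0.11) rose. Of 12 genes that act on the turnover of MYC protein, 7 fell and 3 rose, with a median of -0.22, a number called that is near the 79% over all genes. CIP2A, which protects MYC from dephosphorylation (63.7 ± 4.89 to 20.5 ± 3.80 TPM, -1.61), the ubiquitin ligase subunit SKP2 (-1.37) and the kinase AURKA (-1.33) fell, and the kinases PIM1 (0.53) and GSK3B (0.15) and the ubiquitin ligase HUWE1 (0.37) rose. CIP2A, SKP2 and AURKA are also genes of cycling cells.

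Of 9 corepressor genes used by the antagonists, 8 were tested, 3 fell and 2 rose, with a median of -0.02, and the number called is below the 79% over all genes. SAP30 (-0.65), HDAC1 (-0.25) and HDAC3 (-0.15) fell and SIN3B (0.28) and SUDS3 (0.19) rose. Of 8 partners of MGA, 5 were tested and all 5 fell, where 42.6% of all genes tested were lower. TFDP1 fell most (-1.31), then CBX3 (-0.57), E2F6 (-0.51), RNF2 (-0.32) and L3MBTL2 (-0.29). With a filter of 1 TPM all 8 were tested, and 6 fell and 1 rose.

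**Figure D5:**
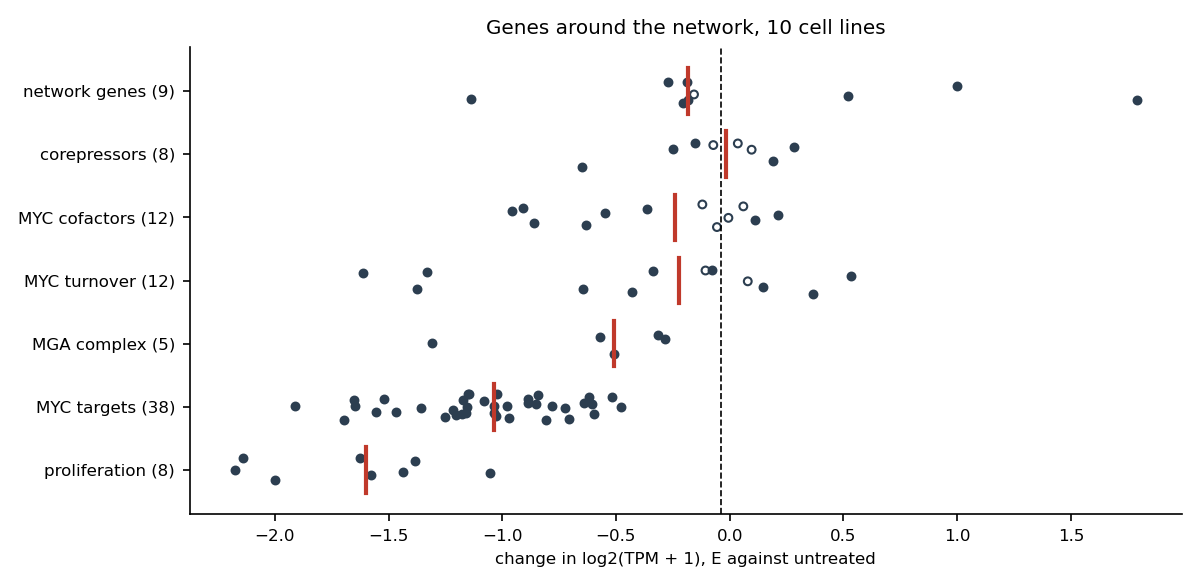
Change in log2(TPM + 1) with E against untreated for the genes of 7 lists, with the number tested in brackets. Filled circles passed the test, open circles did not, red bars are list medians and the dashed line is the median of all genes at -0.04; all 38 MYC targets lie left of it, at -0.48 or lower.

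With AF154 added, 3 of the 38 MYC targets were higher and none lower, where 1.88% of the 9085 genes were higher and 0.473% lower. The median of the 38 was 0.08 against 0.02 over all genes. The 3 called were NCL, LDHA and DDX18 (0.20, 0.20 and 0.23), which are named here after their values were seen. None of the 38 was called without Y634F, where the median was 0.09 and 29 of the 38 changes were above zero against 28 with it, and the calls over all genes dropped from 214 to 10. With no filter on low genes 1 MYC target was called, and without the replicate block, which pairs the libraries of a line, 0 were. All 8 genes of cycling cells were higher, with a median of 0.35, as was CIP2A (0.38, limma adjusted p = 0.019), which was not called without Y634F or Y643F, with no filter, or without the replicate block. The number of cycling genes called was 5 without PAR, 2 without Y634F, 3 without Y643F and 4 without Y698F, 5 with a filter of 1 TPM, 1 with no filter on low genes and 0 without the replicate block, while all 8 changes stayed above zero. MYC itself was not called in this comparison, and whether its targets and MYC differ in their response was not tested.

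Over the 29 libraries the genes whose log2(TPM + 1) ran most nearly in parallel with MYC were MAFF, PHB2, C19orf48P, SHMT2 and BCL2L1, with Pearson r of 0.96 to 0.97, and those that ran most nearly opposite were CHP1, FTL, ERP27, NLRP2 and PAQR7, with r of -0.95 to -0.96. Among the network genes r with MYC was 0.69 for MLX, 0.52 for MXD3, 0.52 for MNT, 0.51 for MGA and 0.39 for MAX, and -0.74 for MXI1, -0.81 for MLXIP and -0.85 for MXD4. The libraries form separate groups by treatment and 3 come from each line but KO, so these values mostly restate the difference between untreated and treated cells and carry no test.

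PAR differed from the 9 derived lines in several of the 10 genes. With E it had the lowest MYC, MXD3, MXD4, MXI1 and MLX, with MYC at 27.6 TPM against 36.03 to 51.9 and MXD4 at 49.6 TPM against 64.9 to 77.2 in the others, and its ratio of MYC to MXD4 was 0.556, within the range of the other lines. With EA its MXI1 was 10.1 TPM against 15.3 to 20.8. As PAR is 1 line with 1 library per treatment, these differences have no replicate, and the knockout and passage cannot be told apart as their source. KO was not transduced, and with E its MYC (50.4 TPM) and MXD4 (76.4 TPM) lay within the range of the transduced lines. Its MXI1 (22.4 TPM) lay above that range. The part of the transduction was not tested. In PAR with E, mitochondrially encoded genes took 17.4% of the TPM, against 12.3% to 14.2% in the other E libraries. The part of this in the low levels of PAR was not tested. Leaving PAR out moved the MYC change to -1.09, that of MXD4 to 1.80, that of MXI1 to 1.06 and that of MLXIP to 0.58, each still past the test.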

How the data were processed

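RNA of 10 PC9 lines was measured in 29 libraries, 1 per line and treatment, all used. The authors deposited TPM per transcript, which the submitters' processing notes credit to kallisto and GRCh38; the version and the annotation are not given in the sources used here. Of 188753 transcripts, 169797 were matched to GENCODE 29 by identifier and summed to 35579 genes, and 18956 were not used. TPM sums to 1000000 in every library and keeps no depth.

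The 9085 genes whose mean over the 29 libraries reached 10 TPM were tested as log2(TPM + 1) with limma 3.58.1 in R 4.3.3 (lmFit, then eBayes with an intensity trend) with a block for cell line, two-sided, with Benjamini-Hochberg adjustment and a threshold of 0.05; fold changes are on the log2(TPM + 1) scale and understate those of low genes. E was compared with untreated in 10 lines and EA with E in 8. Libraries of a line come from the same cells, and their deviations correlated at 0.10 to 0.60 and 0.12 to 0.74. Shares of the transcript with the largest mean were tested by 1024 exact sign flips, for which the smallest p is 0.0020. Single transcripts were fitted over the 47921 that reached a mean of 1 TPM, a step chosen after the gene sums were seen. Promoters are from RefSeq, which matched 9 genes. The limma fit and the sign flips were tested on simulated data. Tables and sign flips were handled in Python 3.11.15 with pandas 2.3.3 and numpy 2.4.6, their p-values adjusted with scipy 1.17.1, and figures drawn with matplotlib 3.10.9.

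The genes and lists were chosen with earlier results of these data known. The genes named were the 10 genes of the network, TXNIP, ARRDC4, MYCN, MYCL, MLXIPL, AXL, the marker genes, and the 5 and 5 genes with the highest and lowest r with MYC. From each list, at most the 4 with the largest and the 4 with the smallest change with E among those past the threshold were named. Not every such gene is named. NCL, LDHA and DDX18 were named for their calls with EA. A further gene of the lists is not analysed here. Alternatives tried were other filters, a pseudocount of 0.1, centring, quantile normalization, mitochondrial genes left out, no block, other sets of lines and each line left out.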

Additional observations from a re-analysis of the deposited data

Results flagged for a closer look

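Of 50 sets of levels or changes of the 10 genes across lines, 5 held a line whose gap to the nearest line took more of the range than Dixon's 95% critical value allows, where chance alone flags about 1 in 20. PAR gave 3 of them. MAX in untreated PAR was at 101.2 TPM, against 58.6 to 81.1 TPM in the other lines. MXD4 in PAR with E was at 49.57 TPM, against 64.9 to 77.2 TPM. MXI1 in PAR with EA was at 10.06 TPM, against 15.3 to 20.8 TPM. WT gave the other two, both for MNT. Its untreated level was 37.7 TPM, against 51.0 to 65.4 TPM, and its change with E was 0.4539 on the log2 scale, against -0.47 to -0.02, while its coding transcript MNT-201 was within the range of the other lines.

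MXD4 rose by 0.1813 on the log2 scale when AF154 was added in KD, and fell in each of the 8 other lines that have an EA library, by 0.006 to 0.38. This opposite direction is what drew attention to it. The difference was not tested, since KD is 1 line, and the coding MXD4-201 in KD hardly moved, from 56.5 to 57.3 TPM.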

How the results depend on the processing

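With E, MYC, MXD4, MXI1, MLX, MGA and MLXIP kept direction and call under the alternatives tried on gene sums, except that a filter of 10 TPM in every library leaves MXI1 out. Leaving out each line gave 6 (without PAR) to 9 (without WT) called network genes and 6999 to 7256 called genes. MNT passed with that filter (limma adjusted p = 0.048). Centring the libraries moved the share of higher calls from 46.1% to 50.8%.

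With the transcript of largest mean in place of the gene sum, chosen after seeing the data, MNT (0.262) and MGA (0.0674) reversed with E, as did MYC (-0.0557), MXD3 (0.394), MXI1 (-0.0114) and MGA (-0.0031) with EA, and only MNT passed the test. MNT-201 stayed at 0.251 to 0.281 without each line, also chosen after seeing the data. Among coding transcripts alone its share reversed to a difference of -2.8 percentage points. This share leaves out the MNT transcripts without a coding frame, which fell. All coding MNT RNA rose from 14.6 to 18.2 TPM, and MNT-201 alone rose from 14.2 to 17.2 TPM. The cause of these changes was not tested. Coding transcripts alone moved the median of MYC over the antagonists from 0.817 to 1.499 untreated and from 0.262 to 0.374 with E. Without each line in turn, 0 to 1 shares passed after adjustment, and the differences that crossed zero ran from -1.98 to 1.15 for MAX-204 (0.682 without WT), -1.56 to 7.64 for MXD1-201 and -0.779 to 2.76 for MLXIP-201.

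With EA, 0 network genes were called by limma in each alternative tried on gene sums. Without each line, changes crossed zero from -0.0347 (Y643F) to 0.0763 for MYC (-0.00062 without Y698F), from -0.0685 (Y698F) to 0.0716 for MAX (-0.0229 without Y634F, -0.0051 without Y750F), from -0.0518 (Y643F) to 0.0788 for MXI1 (-0.0060 without Y726F) and from -0.0133 (Y821F) to 0.103 for MGA. MXI1 was at -0.00042 with centring. Called genes, 214 in the 8 lines, were 67 with a filter of 1 TPM, 6 with no filter, 120 with the KD pair and 308 without mitochondrial genes. Without the replicate block that pairs the libraries of a line, 9 were called, and the block changed no call of a network gene. Leaving out a line gave 10 (without Y634F) to 188 (without Y726F), with 18 without Y643F, 55 without PAR or Y698F, 76 without Y750F, 94 without Y821F and 131 without WT. The depth behind the values is unknown, and 1 library per line and treatment leaves differences between lines without replicates.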
